A study of Homo sapiens with 6 samples.

Results

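The ATF4 and unfolded protein response genes are the genes that a cell uses to answer amino acid shortage and misfolded protein in the endoplasmic reticulum (ER). They were listed by name, 35 in all, and their rows were found in the deposited count table through the Ensembl transcript IDs, of which the table has 22279. A row was found for 32 of the 35. CHAC1, HYOU1 and ERN1 (the gene of the sensor IRE1) were not analysed here. All 32 passed the filter on low counts.

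The study measured RNA in LNCaP, an established human prostate cancer cell line that is androgen sensitive. Of the 6 libraries, 3 came from shRB cells, which carry a short hairpin against RB, and 3 from shCON cells, which carry a control hairpin. Cells of both groups were kept for 72 h in CDT, which the labels list as a treatment for cell cycle arrest and the series' design text places under hormone-deficient conditions. The comparison asks what RB loss does to the transcriptome in that state. The labels name 1 hairpin per group, so RB loss and any other effect of that hairpin cannot be told apart. Separate cultures are not stated for the replicates. The p-values therefore set the group difference only against the spread among these libraries, and that spread may be technical.

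When unfolded protein collects in the ER, its chaperone BiP (HSPA5) leaves the sensors PERK, ATF6 and IRE1 and each starts its own branch. PERK phosphorylates eIF2 alpha, which slows translation in general but favours translation of ATF4, the activator of amino acid synthesis, amino acid import and stress genes, and amino acid shortage reaches ATF4 through another eIF2 kinase. ATF6 is cut in the Golgi and induces ER chaperones, while IRE1 splices XBP1 mRNA so that it encodes an activator of folding and ER-associated degradation (ERAD) genes. Secretory cells such as those of the prostate lean heavily on this machinery. The genes are grouped here as PERK-ATF4 (18 listed), ATF6 (9 listed) and IRE1-XBP1 (8 listed), although many ER genes answer to ATF6 and XBP1 alike.

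RB1 itself read 5.83, 3.82 and 5.41 CPM (the count scaled to the normalised total of its library) in shRB 1 to 3, against 56.6, 52.7 and 54.7 CPM in shCON 1 to 3, so that 9.18% of the shCON level was left. Total counts per library were 9780579 to 10898768 in shRB and 6115310 to 20091488 in shCON. The 10 luminal prostate markers were all expressed, with a summed level of 4774 to 5104 CPM in shRB and 5095 to 5371 CPM in shCON. The 3 basal markers stayed under 1 CPM in every library, KRT5 at 0, and the leukocyte genes PTPRC and CD3E and the endothelial genes PECAM1 and CDH5 were at 0 throughout. Endothelial counts came from VWF, with a sum of 1.73 to 3.71 CPM in shRB and 8.17 to 10.7 CPM in shCON. Leukocyte marker sums were 5.01 to 5.30 CPM in shRB and 5.39 to 7.27 CPM in shCON, and those of 3 fibroblast genes, with COL1A2 at 0, were 11.7 to 15.3 CPM in shRB and 16.4 to 19.4 CPM in shCON. Neuroendocrine markers summed to 1.59 to 1.91 CPM in shRB and 0.817 to 2.06 CPM in shCON, with INSM1 at 0. The part of these markers in the results was not tested. The deviation of a library from its group's mean followed transcript GC content upwards in shRB 2 and shCON 2 and downwards in shRB 1, shRB 3 and shCON 1. In shCON 3 it was nearly flat (Spearman's rho -0.09). The genes touched by this tilt are named below.

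The DNA letters that the sensors' transcription factors read are shown first. The gene with the largest change, XBP1, carries one of them, and the part of that element in the change was not tested. ATF6 binds the ER stress response element (ERSE), which is CCAAT and CCACG with any 9 bases between them, with the factor NF-Y on the CCAAT part. Among the 29 of 32 genes with an entry in the RefSeq promoter table (GRCh38.p14, the 250 bases before the annotated start), the ERSE lay in 4, and the sequences are given 5′ to 3′ with both outer parts in capitals. These 5 elements were picked for display after the matches were seen. XBP1 has its element at chr22:28800603-28800621 (minus strand), HSPA5 at chr9:125241391-125241409 (minus), HSP90B1 at chr12:103930216-103930234 (plus) and chr12:103930321-103930339 (minus), and CALR at chr19:12938384-12938402 (minus).
XBP1: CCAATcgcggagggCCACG
HSPA5: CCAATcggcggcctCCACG
HSP90B1 distal: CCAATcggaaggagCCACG
HSP90B1 proximal: CCAATcgcgccgcaCCACG
CALR: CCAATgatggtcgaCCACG

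Of these 4 genes XBP1 rose in shRB, while HSPA5, HSP90B1 and CALR had log2 fold changes of 0.00, 0.02 and -0.01. The ERSE was found in 13.8% of the member promoters and in 0.0806% of all 27305 promoters of the same length, or 0.144% of the 9051 of genes tested here. The members were listed as ATF4 and ER stress genes. A higher share of such motifs may come with that choice and does not describe the change in shRB. The related ERSE-II (ATTGG and CCACG with any 1 base between them) lay in 2 of the 29, SDF2L1 at chr22:21642114-21642124 (minus strand) and HERPUD1 at chr16:56932025-56932035 (plus strand), and in 0.0513% of all promoters and 0.110% of those of tested genes. Neither gene passed the test.
SDF2L1: ATTGGtCCACG
HERPUD1: ATTGGgCCACG

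The C/EBP-ATF response element (CARE), to which ATF4 binds with C/EBP partners, was searched as TGATGNAAN and matched ASNS and HERPUD1, 6.90% of the 29 against 3.18% of all promoters and 1.27% of the 9051 promoters of genes tested here. The XBP1 and ATF6 motif UPRE (TGACGTGG) matched none of the 29, 0.667% of all promoters and 0.729% of those of tested genes, and an E2F motif (TTTGGCGC or TTTCGCGC) matched none of the 29, 0.996% of all and 1.69% of those of tested genes. Both strands were searched, and the CCACG part is shared by ERSE, ERSE-II and, on the other strand, UPRE. A match describes letters in this window and does not show a factor bound there. The promoters of the called gene with the largest change in each branch are given whole, on their own strand, with motifs in capitals where there is one: XBP1 at chr22:28800570-28800819 (minus strand), DDIT4 at chr10:72273674-72273923 (plus) and PDIA4 at chr7:149028491-149028740 (minus). XBP1 has its ERSE 33 bases before the start, and DDIT4 and PDIA4 hold none of the 5 motifs. Of the called members with a promoter entry, the ERSE was found in 1, XBP1, and each other motif in 0.
XBP1 promoter: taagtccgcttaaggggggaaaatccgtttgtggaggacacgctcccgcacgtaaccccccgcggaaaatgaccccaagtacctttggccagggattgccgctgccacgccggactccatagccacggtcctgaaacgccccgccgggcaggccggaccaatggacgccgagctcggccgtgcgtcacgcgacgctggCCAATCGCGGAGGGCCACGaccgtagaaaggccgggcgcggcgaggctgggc
DDIT4 promoter: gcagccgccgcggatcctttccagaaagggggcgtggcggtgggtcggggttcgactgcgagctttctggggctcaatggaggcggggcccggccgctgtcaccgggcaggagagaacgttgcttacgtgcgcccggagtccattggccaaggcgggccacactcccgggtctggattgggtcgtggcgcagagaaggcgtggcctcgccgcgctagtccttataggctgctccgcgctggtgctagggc
PDIA4 promoter: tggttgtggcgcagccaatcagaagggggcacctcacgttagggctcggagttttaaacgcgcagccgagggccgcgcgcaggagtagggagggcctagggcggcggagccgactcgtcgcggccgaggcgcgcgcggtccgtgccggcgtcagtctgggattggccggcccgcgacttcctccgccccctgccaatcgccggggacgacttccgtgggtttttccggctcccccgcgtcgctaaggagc

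Over the 3 branches, 7 of the 32 genes rose in shRB and none fell. XBP1 rose by far the most, 1.88-fold, and DDIT4, PHGDH, TRIB3, DDIT3, PDIA4 and EDEM1 rose 1.17-fold to 1.32-fold. ATF4 mRNA did not pass the test, and the main ER chaperones HSPA5, HSP90B1 and CALR had nearly the same level in both groups. The 7 make up 21.9% of the 32, while 12.8% of all 11712 genes tested were higher in shRB and 12.5% lower (edgeR quasi-likelihood test, Benjamini-Hochberg adjusted p under 0.05). The list was chosen with earlier results of these data known, so its share is a description and not independent support. The median log2 fold change was 0.06 over the 32 genes, with a range of -0.26 to 0.91, and -0.01 over all genes tested. Of the 32, 12 had an unadjusted p under 0.05, 1 of them (SEL1L) lower in shRB, and DESeq2 and limma-voom likewise called 0 genes lower. The shRB libraries lay wholly above the shCON libraries for 13 genes and wholly below for 3, and the groups overlapped for 16. Among all genes tested, 21.0% lay wholly above and 20.2% wholly below. In bulk RNA a change in every cell and a change in some of the cells cannot be told apart.

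**Figure D1:**
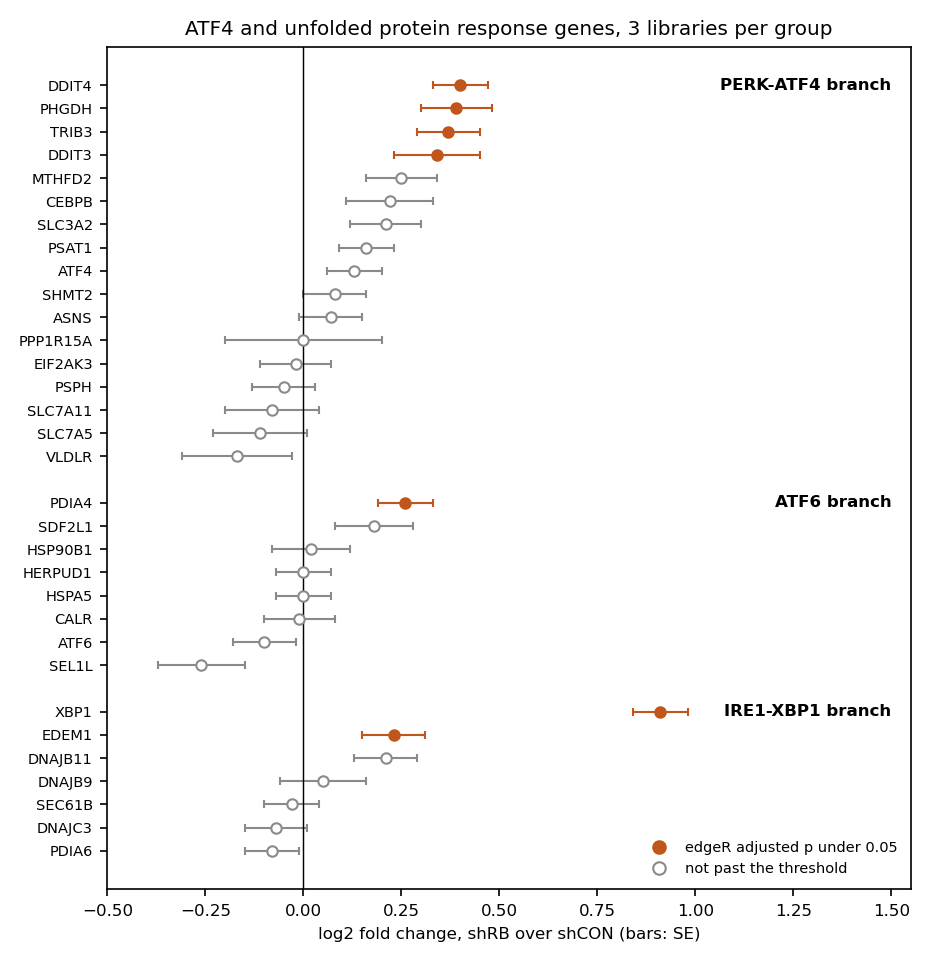
Log2 fold change of shRB over shCON for the 32 genes (x axis; bars, SE; 3 libraries per group), sorted within each branch, with filled points for the 7 genes past the edgeR threshold. XBP1 stands alone at 0.91, and the other filled points lie between 0.23 and 0.40.

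In the IRE1-XBP1 branch 2 of 7 tested genes (28.6%) rose, 0 fell and 5 did not pass the test. The median log2 fold change was 0.05, and of all genes tested 12.8% rose and 12.5% fell. XBP1 (ENST00000216037, chromosome 22), the transcription factor of the branch and itself a target of ATF6, read 574, 584 and 581 CPM in shRB 1 to 3, against 305, 310.3 and 309.6 CPM in shCON 1 to 3. Replicates lay close together, and a wide gap separated the groups. The means were 579.7 ± 5.06 CPM in shRB and 308 ± 3.15 CPM in shCON (SD, n = 3 each), from 17821 and 11188 counts. The log2 fold change was 0.91 ± 0.07 (SE; edgeR adjusted p = 5.5e-07). The table gives XBP1 as 1 transcript ID, so spliced and unspliced mRNA were not separated. Genes of chromosome 22 were called higher more often than the average, 24.3% of 313, with a median log2 fold change of 0.08, and the 4 tested genes nearest to XBP1 had a median of 0.14 (-0.06 to 0.34).

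EDEM1 (chromosome 3), which draws misfolded glycoproteins out of the folding cycle for degradation, read 97.4, 99.2 and 104 CPM in shRB, against 87.3, 81.7 and 87.9 CPM in shCON. All shRB libraries were higher, at a log2 fold change of 0.23 ± 0.08 (edgeR adjusted p = 0.041). On chromosome 3, 28.4% of 663 tested genes were higher in shRB, and the 4 nearest tested genes had a median log2 fold change of 0.35 (-0.44 to 1.11). The part of the chromosome in the EDEM1 difference was not tested. The call was lost without any one of shRB 1, shRB 3, shCON 1, shCON 2 or shCON 3. With all libraries it was lost with DESeq2, with no filter, and with upper-quartile factors or plain library totals (adjusted p up to 0.13 over the alternatives).

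The other IRE1-XBP1 genes did not pass. DNAJB11, an HSPA5 co-chaperone also on chromosome 3, read 104, 102 and 96.2 CPM in shRB, against 91.1, 88.5 and 80.7 CPM in shCON, without overlap between the groups (log2 fold change 0.21 ± 0.08, edgeR adjusted p = 0.066). The co-chaperones DNAJB9 and DNAJC3 had log2 fold changes of 0.05 and -0.07 with overlapping groups. PDIA6, a disulfide isomerase that also acts on active IRE1, read 419.7, 425 and 431 CPM in shRB, against 449, 448 and 451 CPM in shCON. All its shRB libraries were lower, by a small step (log2 fold change -0.08 ± 0.07, edgeR adjusted p = 0.41). SEC61B, a subunit of the channel through which new proteins enter the ER, read 113 ± 4.43 CPM in shRB and 115 ± 2.80 CPM in shCON (SD, n = 3 each).

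**Figure D2:**
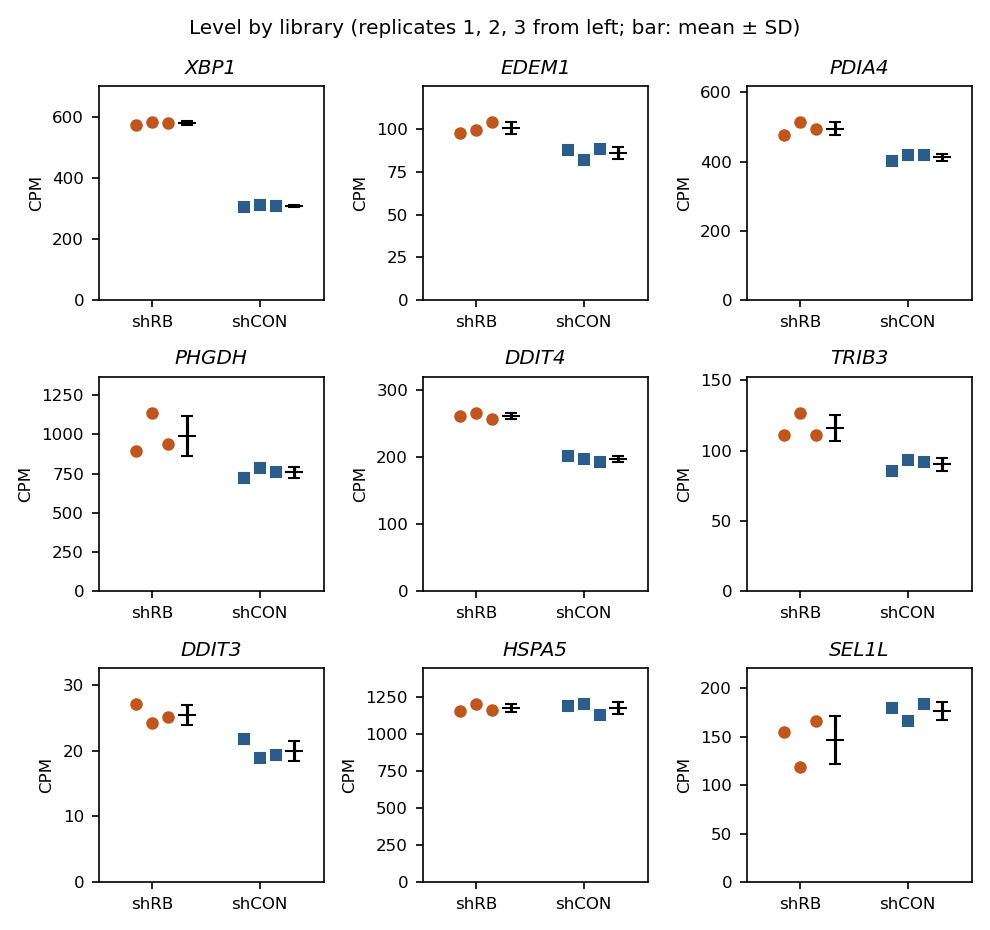
Level in CPM (y axis, from 0) in each library for the 7 genes past the threshold and for HSPA5 and SEL1L, which did not pass, with shRB on the left and shCON on the right of each panel (points, libraries 1 to 3; bar, mean ± SD). XBP1 shows 574 to 584 CPM in shRB above 305 to 310.3 CPM in shCON, while HSPA5 shows overlapping ranges, 1159 to 1205 CPM in shRB and 1129.9 to 1201 CPM in shCON.

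In the PERK-ATF4 branch 4 of 17 tested genes (23.5%) rose, 0 fell and 13 did not pass, with a median log2 fold change of 0.13. Of all genes tested, 12.8% rose and 12.5% fell. The sensor PERK (EIF2AK3) read 38.6 ± 2.31 CPM in shRB and 39.2 ± 1.65 CPM in shCON (SD, n = 3 each). ATF4 (chromosome 22), the transcription factor of the branch, read 394, 408 and 394 CPM in shRB, against 352, 382 and 360.2 CPM in shCON. All shRB libraries were higher than all shCON libraries, but the step was small (log2 fold change 0.13 ± 0.07, edgeR adjusted p = 0.19). ATF4 is controlled mainly at translation, which RNA counts do not show.

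Of the 8 tested PERK-ATF4 genes outside amino acid and one-carbon metabolism and transport, 3 (37.5%) rose and 0 fell. PERK and ATF4 are among the 8, and the 3 that rose are stress regulators under ATF4. Of all genes tested, 12.8% were higher in shRB and 12.5% lower. DDIT4 (chromosome 10), known as REDD1 and an inhibitor of mTORC1, read 261, 266 and 256 CPM in shRB, against 202, 197 and 193 CPM in shCON. The shRB libraries were evenly higher, at a log2 fold change of 0.40 ± 0.07 (edgeR adjusted p = 0.00075). TRIB3 (chromosome 20), a pseudokinase that feeds back on ATF4, read 111, 127 and 111 CPM in shRB, against 85.3, 93.2 and 92.3 CPM in shCON. Its groups did not overlap, and shRB 2 was the highest library (log2 fold change 0.37 ± 0.08, edgeR adjusted p = 0.0052). The 4 tested genes next to TRIB3 had log2 fold changes of 0.13 to 1.15 with a median of 0.39, as large as that of TRIB3, and their part in it was not tested.

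DDIT3 (chromosome 12), which encodes the stress factor CHOP, read 27.1, 24.2 and 25.03 CPM in shRB, against 21.7, 18.8 and 19.4 CPM in shCON. The groups did not overlap, at a log2 fold change of 0.34 ± 0.11 (edgeR adjusted p = 0.036). Its exons overlap those of MARS1 on the opposite strand, which also rose, and no source used here states whether counting used strand, so the reads of both genes cannot be told apart. The DDIT3 call was lost when any one library other than shRB 2 was left out, with DESeq2, and with upper-quartile factors or plain library totals (adjusted p up to 0.12 over the alternatives). CEBPB, a partner of ATF4, read 27.95, 24.8 and 25.7 CPM in shRB, against 24.1, 20.1 and 22.7 CPM in shCON, with no overlap and no call (log2 fold change 0.22 ± 0.11, edgeR adjusted p = 0.15). PPP1R15A (GADD34), the phosphatase subunit that reverses eIF2 alpha phosphorylation, was the least expressed member at 3.70 ± 0.125 CPM in shRB and 3.61 ± 0.956 CPM in shCON (SD, n = 3 each; 114 and 136 counts). At that depth its log2 fold change of -0.00 had an SE of 0.20. VLDLR, a lipoprotein receptor and ATF4 target, read 10.4 ± 0.936 CPM in shRB and 11.3 ± 1.53 CPM in shCON (SD, n = 3 each).

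Of 5 serine and one-carbon enzymes 1 (20%) rose, against 12.8% of all genes tested, and their median log2 fold change was 0.16. PHGDH (chromosome 1), which takes the first step of serine synthesis from a glycolytic intermediate, read 894, 1138 and 939 CPM in shRB, against 722, 789 and 763 CPM in shCON. All shRB libraries were higher, and shRB 2 stood well above the other two (log2 fold change 0.39 ± 0.09, edgeR adjusted p = 0.0072). Without shRB 2 the PHGDH value remained past the threshold. The 4 tested genes next to PHGDH had a median log2 fold change of 0.11 (-0.25 to 1.18), and their part was not tested. PSAT1, the next enzyme, read 360.2, 334 and 374 CPM in shRB, against 329.5, 303 and 322 CPM in shCON, a difference without overlap that did not pass (log2 fold change 0.16 ± 0.07, edgeR adjusted p = 0.13). PSPH, the last enzyme of the pathway, read 94.2 ± 0.841 CPM in shRB and 97.6 ± 5.93 CPM in shCON (SD, n = 3 each). MTHFD2, a mitochondrial folate enzyme, read 97.2, 96.9 and 111 CPM in shRB, against 92.7, 80.6 and 82.7 CPM in shCON, which left it just short of the threshold (log2 fold change 0.25 ± 0.09, edgeR adjusted p = 0.052). SHMT2, which passes the serine carbon to folate, had a log2 fold change of 0.08 ± 0.08 with overlapping groups.

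None of the 4 genes of asparagine synthesis and amino acid transport passed. ASNS, the asparagine synthetase often used as a readout of ATF4, read 148, 158 and 173 CPM in shRB, against 159, 152 and 145 CPM in shCON. The groups overlapped (log2 fold change 0.07 ± 0.08, edgeR adjusted p = 0.56). SLC3A2, the heavy chain shared by the transporters xCT and LAT1, read 172, 210.2 and 177 CPM in shRB, against 155, 169 and 157 CPM in shCON (log2 fold change 0.21 ± 0.09, edgeR adjusted p = 0.083). Its groups did not overlap, and shRB 2 was the highest library. The light chains SLC7A5 (LAT1) and SLC7A11 (xCT, the cystine importer) had log2 fold changes of -0.11 ± 0.12 and -0.08 ± 0.12. SLC7A11 read 65.5, 48.5 and 69.96 CPM in shRB, against 65.3, 60.3 and 69.6 CPM in shCON, with the lowest value in shRB 2. Without shRB 2 its log2 fold change was 0.07, still short of the threshold.

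In the ATF6 branch 1 of 8 tested genes (12.5%) rose and 0 fell, with a median log2 fold change of -0.00. The share that rose was thus near the 12.8% of all genes tested, of which 12.5% fell. PDIA4 (chromosome 7), an ER disulfide isomerase, read 477, 515 and 493 CPM in shRB, against 401, 418 and 419 CPM in shCON. All shRB libraries were higher (log2 fold change 0.26 ± 0.07, edgeR adjusted p = 0.013). The call was lost without shCON 1 or without shCON 3 (adjusted p up to 0.082). The sensor ATF6 itself read 99.4, 92.1 and 99.8 CPM in shRB, against 102, 101 and 111 CPM in shCON, a small step down that did not pass (log2 fold change -0.10 ± 0.08, edgeR adjusted p = 0.37).

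The large chaperones of this branch were among the most abundant members and differed little. HSPA5 (BiP) read 1159, 1205 and 1164 CPM in shRB, against 1193, 1201 and 1129.9 CPM in shCON. The groups overlapped, and with 36140 and 43169 counts the log2 fold change was 0.00 ± 0.07 (edgeR adjusted p = 0.99). HSP90B1 (GRP94) read 956 ± 112 CPM in shRB and 943 ± 96.2 CPM in shCON, and CALR (calreticulin) 2261 ± 247 CPM in shRB and 2278 ± 107 CPM in shCON (SD, n = 3 each). HERPUD1, an ERAD scaffold, read 121 ± 3.07 CPM in shRB and 122 ± 3.57 CPM in shCON (SD, n = 3 each). SDF2L1, a small HSPA5-associated chaperone, read 64.7, 78.6 and 65.4 CPM in shRB, against 62.4, 56.5 and 65.02 CPM in shCON, with overlap between the groups (log2 fold change 0.18 ± 0.10, edgeR adjusted p = 0.19).

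SEL1L, the adaptor of the HRD1 ubiquitin ligase in ERAD, was the member with the most negative value. It read 155, 119 and 166 CPM in shRB, against 179.6, 166 and 184 CPM in shCON. The lowest library was shRB 2, and shRB 3 touched shCON 2 (log2 fold change -0.26 ± 0.11, edgeR adjusted p = 0.083). SEL1L was called lower without shRB 3, with an offset for GC content, with the replicate numbers as a block and with no filter. Its log2 fold change ranged from -0.36 to -0.13 over the alternatives. The 4 tested genes next to SEL1L had a median of -0.09 (-1.84 to -0.06), and their part was not tested.

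**Figure D3:**
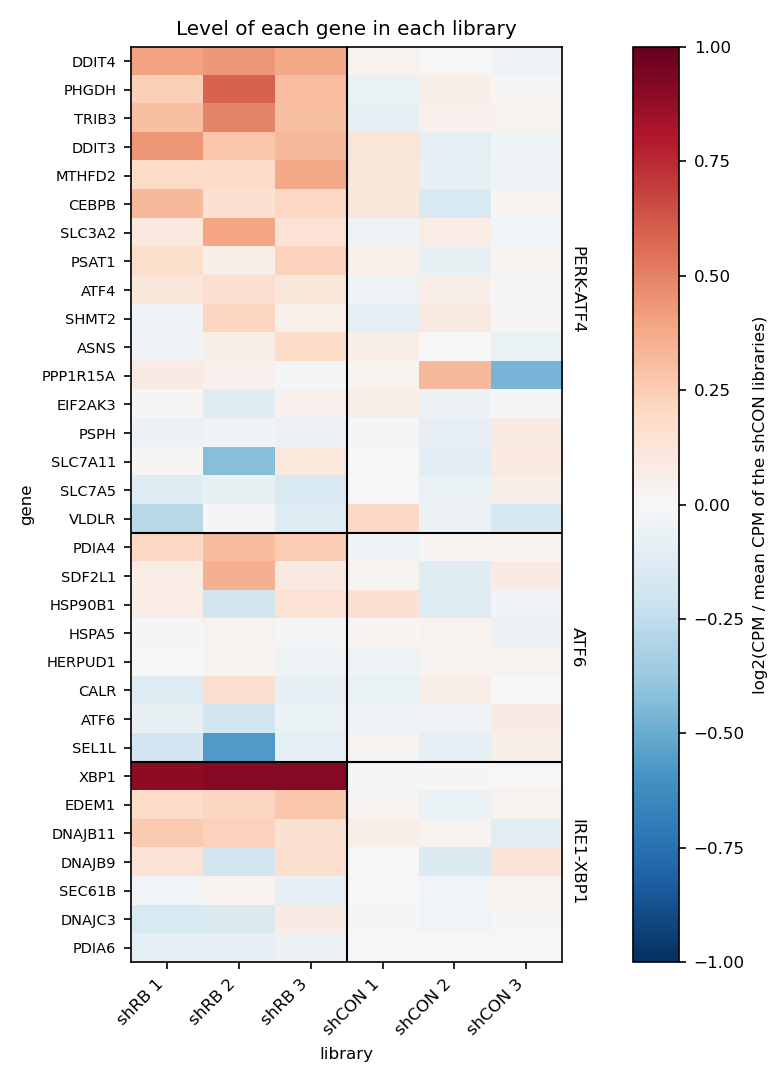
Level of each of the 32 genes (rows, by branch and fold change) in each library (columns, shRB 1 to 3 then shCON 1 to 3), as log2 of CPM over the mean of the shCON libraries. XBP1 is the single row with a strong, even rise in all 3 shRB libraries, and shRB 2 differs from shRB 1 and 3 in rows such as SLC7A11 and SEL1L, where it is low, and PHGDH, where it is high.

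Per kilobase of transcript, CALR was the most abundant member, with 1188 CPM per kb in shRB and 1197 in shCON, followed by PHGDH with 526 in shRB and 403 in shCON. HSP90B1 followed at 335 CPM per kb in shRB and 330.1 in shCON. XBP1 stood at 313 CPM per kb in shRB and 167 in shCON, and HSPA5 at 301 in each group. In shRB the XBP1 level thus lay just above that of HSPA5, and in shCON well below it. ATF4 stood at 197 CPM per kb in shRB and 181 in shCON. PPP1R15A was lowest, at 1.56 CPM per kb in shRB and 1.52 in shCON.

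The members spread along GC content, most of all in shRB 2. Against the mean of shRB 1 and 3, the log2 level in shRB 2 was -0.48 for SLC7A11 and -0.43 for SEL1L, which have low GC contents of 35.4% and 39.4%, and 0.31 for PHGDH at 57.9%. Across the 32 members Spearman's rho between GC content and this deviation was 0.72, and the same measure for shCON 2 against shCON 1 and 3 gave 0.38. The log2 fold change of shRB over shCON itself had a rho of 0.42 with GC content across the 32 members. Over 11674 genes the deviation of each library from its group's mean had a rho with GC content of -0.5, 0.69 and -0.54 in shRB 1 to 3 and -0.51, 0.52 and -0.09 in shCON 1 to 3, so that shRB 2 and shCON 2 were tilted the same way. Of the 16 members with the lower GC content 12 were lower in shRB 2, and of the 16 with the higher GC content 2 were. These are descriptions across genes of the same libraries. XBP1 deviated by 0.02 and DDIT4 by 0.04. With shRB 2 left out 10 of the 32 members were called higher, with an offset for GC content 12, and without shCON 3, the shallowest library, 4. Of the 25 members not called, 6 passed in some alternative. MTHFD2 passed in 6 of 19 (without shRB 2, without shCON 1, with the GC offset, the replicate block, no filter or summed IDs) and PSAT1 and DNAJB11 in 3 (without shRB 2, with the GC offset or the replicate block). SLC3A2 passed in 2 (the GC offset and the replicate block), SDF2L1 in 1 (the GC offset) and SEL1L, lower, in 4.

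**Figure D4:**
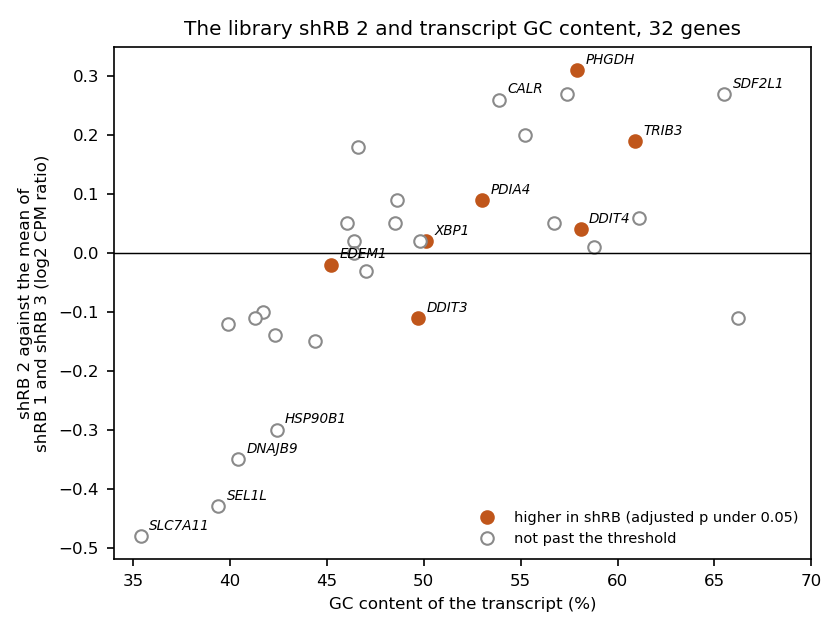
Log2 ratio of the level in shRB 2 to the mean of shRB 1 and shRB 3 (y axis) against the GC content of the transcript in percent (x axis) for the 32 genes, with filled points for the 7 genes called higher in shRB. Points rise to the right, with SLC7A11 (-0.48) at the lower left and PHGDH (0.31) among the highest, while XBP1 (0.02) lies near 0.

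Other genes of the same pathways were taken from 7 further lists of 151 genes, of which 134 were tested: 25 rose, 11 fell and 98 did not pass, with a median log2 fold change of 0.06. The 25 are 18.7% of those tested, against 12.8% higher and 12.5% lower among all genes. The counts of each list below stand beside the same shares of all genes. These lists too were chosen with earlier results of these data known. Leaving out 1 library gave 11 (without shCON 1) to 35 (without shRB 2) higher and 4 (without shRB 1) to 13 (without shRB 2) lower. Among other targets of ATF4, 9 of 21 rose and 1 fell, with a median of 0.21. NIBAN1 (chromosome 1), a stress-induced regulator of translation, read 11.2, 10.3 and 14.7 CPM in shRB, against 4.81, 4.12 and 5.88 CPM in shCON (log2 fold change 1.32 ± 0.18, edgeR adjusted p = 0.00013). GDF15 (chromosome 19), a secreted stress hormone, read 283, 275 and 277 CPM in shRB, against 173, 183 and 166 CPM in shCON (log2 fold change 0.68 ± 0.07, edgeR adjusted p = 1.4e-05). CEBPG, the usual binding partner of ATF4, read 105, 105 and 111 CPM in shRB, against 83.5, 78.6 and 79.2 CPM in shCON (log2 fold change 0.41 ± 0.07, edgeR adjusted p = 0.0013). In all 3 genes the groups lay apart. The 1 that fell, named after its value was seen, was CBS, the first enzyme from homocysteine towards cysteine (log2 fold change -0.28 ± 0.08, edgeR adjusted p = 0.021). The CBS call was lost without any one of shRB 1, shRB 3, shCON 2 or shCON 3 (adjusted p up to 0.099). CBS lies on chromosome 21, where 63.4% of 123 tested genes were lower in shRB and 0 were higher.

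Cytosolic aminoacyl-tRNA synthetases, which charge tRNAs and are a known ATF4 output, rose in 5 of 18 cases and fell in 0, with a median log2 fold change of 0.11. IARS1 read 291 ± 13.6 CPM in shRB and 238 ± 15.2 CPM in shCON, MARS1 235 ± 10.1 CPM in shRB and 198 ± 7.60 CPM in shCON, and AARS1 788 ± 79.7 CPM in shRB and 653 ± 35.6 CPM in shCON (SD, n = 3 each). Their log2 fold changes of 0.29, 0.25 and 0.27 were of the size seen for PDIA4. Without shRB 3, shCON 1 or shCON 3 the count was 1, without shCON 2 it was 3, and MARS1 and AARS1 were lost in the first 3 of these fits and IARS1 without shCON 2 or shCON 3 (adjusted p up to 0.13). Of the eIF2 kinases and eIF2 machinery 1 of 11 rose, EIF2B5 (chromosome 3), the catalytic subunit of the eIF2 exchange factor, with 86.8, 98.5 and 86.2 CPM in shRB, against 65.2, 68.7 and 62.7 CPM in shCON (log2 fold change 0.46 ± 0.08, edgeR adjusted p = 0.0013). Of 8 relatives of the sensors and ER stress bZIP factors 0 rose and 1 fell. That was ATF6B, the paralogue of ATF6, with 12.1, 15.8 and 16.8 CPM in shRB, against 19.98, 22.5 and 17.2 CPM in shCON (log2 fold change -0.43 ± 0.14, edgeR adjusted p = 0.042). Its exons overlap those of TNXB, so reads may be shared. The ATF6B call was lost without shRB 1, shCON 1 or shCON 2 and with DESeq2 (adjusted p up to 0.17).

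Other ER folding enzymes and chaperones fell in 5 of 22 cases and rose in 2, with a median log2 fold change of -0.06. CANX (chromosome 5), calnexin, the membrane-bound lectin chaperone that works beside CALR, read 476, 422 and 489 CPM in shRB, against 911, 881 and 962 CPM in shCON. This was the most negative value in the 7 lists (log2 fold change -0.99 ± 0.08, edgeR adjusted p = 1.2e-06). The table gives 1 transcript ID for CANX. The 4 tested genes next to CANX had a median log2 fold change of 0.08 (-1.05 to 0.37), and their part was not tested. FKBP14, a prolyl isomerase of the ER, read 12.02, 11.6 and 13.04 CPM in shRB, against 19.8, 17.2 and 18.95 CPM in shCON (log2 fold change -0.61 ± 0.12, edgeR adjusted p = 0.0022). MANF (chromosome 3), a secreted HSPA5 cofactor, read 159, 191 and 155 CPM in shRB, against 129, 129.7 and 133 CPM in shCON (log2 fold change 0.37 ± 0.09, edgeR adjusted p = 0.007). All 3 genes had groups that did not overlap and passed in all 19 alternatives. The count of falls was 2 without shRB 1 or shCON 1 and 3 without shRB 3, shCON 2 or shCON 3.

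Among 20 other ERAD genes 1 rose and 2 fell, with a median log2 fold change of 0.04. UBE2G2, a ubiquitin-conjugating enzyme on chromosome 21, read 59.5 ± 1.08 CPM in shRB and 74.3 ± 1.03 CPM in shCON, and UBE2J1, another, 45.3 ± 3.66 CPM in shRB and 55.3 ± 1.96 CPM in shCON (SD, n = 3 each). EDEM2, a mannosidase related to EDEM1, read 34.2 ± 3.62 CPM in shRB and 26.9 ± 1.92 CPM in shCON (SD, n = 3 each). UBE2G2 passed in all 19 alternatives, but narrowly with a library left out (edgeR adjusted p up to 0.05 after rounding). On chromosome 21, 63.4% of 123 tested genes were lower in shRB and 0 higher, and the part of the chromosome was not tested. UBE2J1 was lost without shRB 1 or any one shCON library and with DESeq2, and EDEM2 without shRB 1, shCON 1 or shCON 3. Of 34 genes of ER translocation and the early secretory pathway 7 rose and 2 fell, with a median of 0.08. SRPRB (chromosome 3), the membrane subunit of the signal recognition particle receptor, had a log2 fold change of 0.32 ± 0.07, and SEC23B, a COPII coat subunit, 0.30 ± 0.07. LMAN1, a cargo receptor that leaves the ER with COPII vesicles, fell by 0.38 on the log2 scale, with an SE of 0.08. The count of rises was 2 without shCON 1 or shCON 3 and 3 without shCON 2, and that of falls 1 without shRB 1, shRB 3, shCON 1 or shCON 3. SRPRB, SEC23B and LMAN1 passed in all 19 alternatives.

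Of the 25 other pathway genes that rose, 8 lie on chromosome 3, where 13 were tested. Without the genes of that chromosome the count was 17, and the members called higher numbered 6, EDEM1 being the one removed. These counts were chosen after the values were seen, and the part of the chromosome was not tested.

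**Figure D5:**
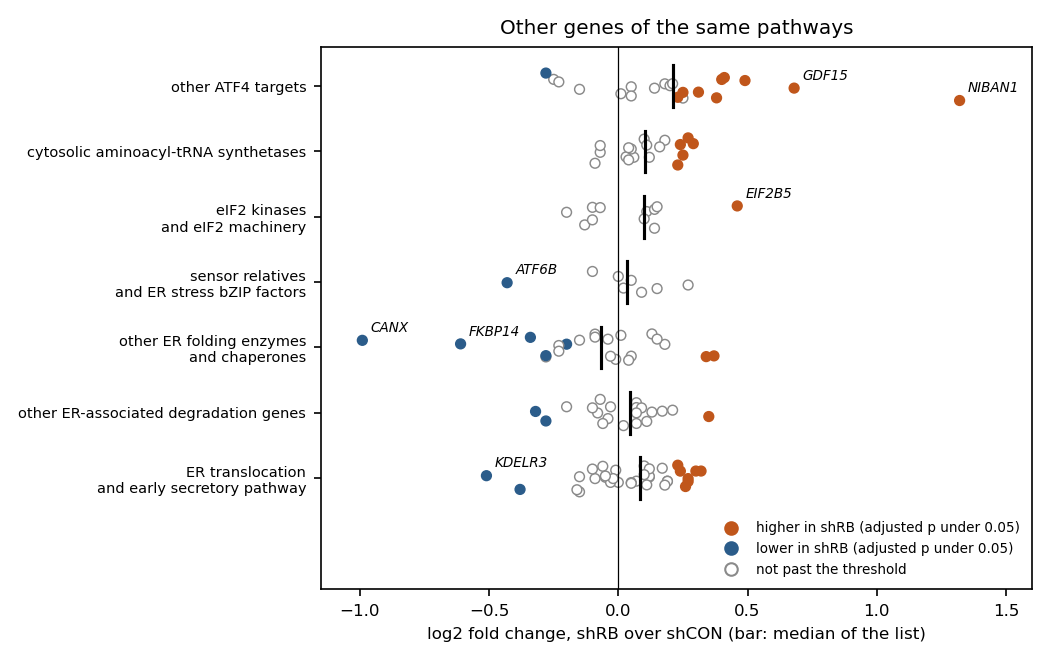
Log2 fold change of shRB over shCON (x axis) for the 134 tested genes of the 7 further lists (rows; points spread vertically for view; bar, median of the list), with filled points past the edgeR threshold. NIBAN1 (1.32) and GDF15 (0.68) lie at the right among other ATF4 targets, and CANX (-0.99) lies at the far left among ER folding genes.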

How the data were processed

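RNA of 3 shRB and 3 shCON libraries was sequenced. The deposited values are unnormalised read counts for each transcript ID in each library. The submitters' processing notes name STAR, HOMER, edgeR and the build hg19. The counting options, annotation and strand setting were not given in the sources used here. Of 22279 IDs 22182 matched GENCODE release 29, a GRCh38 annotation used for names, chromosomes, gene order, transcript length, GC content and exon overlap. The 97 unmatched IDs were kept in library totals. By that annotation 16 of the 32 genes share exon sequence with another gene, among the called genes DDIT3, DDIT4 and EDEM1, and pseudogene copies, as of SLC7A5, PSPH and HSP90B1, may share reads.

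Counts were filtered (filterByExpr, minimum count 10, minimum total 15), scaled by TMM and compared between the 2 groups with edgeR 4.0.16 in R 4.3.3 (quasi-likelihood F test, no covariates). Benjamini-Hochberg adjustment ran over all 11712 genes tested, at a threshold of 0.05. The SE is the log2 fold change divided by the square root of F. CPM uses TMM-adjusted totals, and CPM per kb divides by transcript length. Motifs were searched on both strands of the 250 bases before each RefSeq gene start (GRCh38.p14).

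The members and lists were chosen with earlier results of these data known. Named were all members and, in each further list, up to 3 called genes with the smallest p. Promoters printed are those of the called member with the largest change in each branch. The procedure was tested on simulated counts, which held no GC tilt between libraries, so that test does not cover the tilt in these data. Pairs of replicates differed by 2.23 to 11.43 times what sampling alone gives (chi-square over its degrees of freedom), so each library was counted once. Alternatives were DESeq2 1.42.0, limma-voom (limma 3.58.1), robust fitting, other normalizations, filters and thresholds, a GC offset, a replicate block, summed IDs, the 20 most abundant IDs left out and each library left out in turn.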

Additional observations from a re-analysis of the deposited data

How the results depend on the processing

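Over 19 alternatives XBP1 (log2 fold change 0.89 to 0.93), DDIT4 (0.38 to 0.42), TRIB3 (0.31 to 0.40) and PHGDH (0.28 to 0.46) remained past the threshold. With the replicate block 11 members were higher and 1 lower, and with a GC offset 12 and 1; without a filter 1 was lower, and at a threshold of 0.01, 4 were higher. Leaving out 1 library gave 4 to 10 members higher and 0 to 1 lower, 11 to 35 other pathway genes higher and 4 to 13 lower, and 863 to 2074 genes higher and 912 to 1956 lower over all genes, with the lowest counts of higher genes without shCON 1 or shCON 3 and the highest without shRB 2. The replicate block gave 18 other pathway genes lower and 2294 genes lower in all. The GC offset gave 46 other pathway genes higher and 2717 in all. At 0.01 the counts were 10 higher and 4 lower among other pathway genes and 787 and 793 in all. SLC7A11 changed sign without shRB 2 (0.07; -0.18 to 0.07 over left-out libraries) and with the GC offset (0.06), as did DNAJC3 with the GC offset (0.03), none past the threshold. Further uncalled members with small log2 fold changes crossed sign too. Among them were PPP1R15A in 12 of the 19 alternatives, HSPA5 in 11, HERPUD1 in 9 and HSP90B1 in 5. The cause was not tested. In their deviations from the group means, same-numbered libraries correlated at 0.235, 0.352 and 0, while shRB 3 and shCON 1 reached 0.273. With a GC tilt shared by shRB 2 and shCON 2, these values cannot show whether the numbers pair the samples. Depth limits PPP1R15A (114 and 136 counts) most.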

Other observations

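Further genes of the lists, chosen after their values were seen, rose in shRB by edgeR. The glutamine transporter SLC1A5 read 126 ± 8.85 CPM in shRB and 95.4 ± 5.49 CPM in shCON. EIF4EBP1, the repressor of cap-dependent translation, read 163 ± 13.8 CPM in shRB and 116 ± 14.6 CPM in shCON, and STC2, a secreted glycoprotein, 58.7 ± 2.26 CPM in shRB and 45.1 ± 2.42 CPM in shCON. SEC61A1 (chromosome 3), the pore of the channel to which SEC61B belongs, read 1065 ± 113 CPM in shRB and 884 ± 31.8 CPM in shCON. The SEC61A1 call was lost without any one of the 3 shCON libraries (adjusted p up to 0.14), while SLC1A5, EIF4EBP1 and STC2 passed in all 19 alternatives (all values ± SD, n = 3 each).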
